A study of Rattus norvegicus with 6 samples.

Results

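Expression of 10 immediate early genes of neuronal activity was followed across the 6 libraries of the series, those of Fos, Fosb, Fosl1, Fosl2, Junb, Egr1, Egr3, Nr4a1, Npas4 and Arc. They were chosen by gene symbol and are 10 of the 30076 symbols in the tables. All 6 rats were male F344 animals aged 18 months, and all were anaesthetised with 1.5 to 3% isoflurane. The 3 manipulated rats (replicates 4, 5 and 6) had 7 days of cranial osteopathic manipulation (COM), in which a practitioner treats the head by hand, and the 3 untreated rats (replicates 1, 2 and 3) received anaesthesia without it. Each rat gave 1 RNA library from a coronal section 1 mm thick, cut at the dorsal end of the prefrontal cortex after cervical dislocation. The series asked whether the treatment goes with a change in gene expression, and the time between the last anaesthesia and death is not given in the sources used here.

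Immediate early genes are transcribed within minutes of strong synaptic input, without new protein synthesis, when calcium and kinase signals reach the factors CREB, SRF and MEF2 on their promoters. Most encode transcription factors that drive a later wave of genes, and Arc encodes a protein that acts at the synapse itself. In cortex their transcripts are short-lived and are widely used as a mark of recent neuronal activity. In bulk tissue, fewer cells of a type and less RNA per cell cannot be told apart.

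Values are FPKM, fragments scaled to transcript length and to the mapped fragments of the library, so that levels can be compared between genes per length. A fold change here is a difference of log2(FPKM + 1), manipulated minus untreated, which understates the change of low genes. A gene passed where the limma p, adjusted by Benjamini-Hochberg over all 10657 tested genes, was at most 0.05. Tested genes had a row of their own in every library and a mean of at least 1 FPKM. Of the 10 immediate early genes 8 were tested. Fosb had a mean just under the limit, 1.00 FPKM after rounding, and Egr3 was present only in rows that name several genes. Fos was the tested gene nearest above the limit, at 1.22 FPKM.

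Libraries differed in level as a whole. The median of all tested genes was 3.98 to 5.50 FPKM in untreated and 2.75 to 4.07 FPKM in manipulated libraries, and the median log2 fold change over all genes was -0.36, so that changes below are also given after median-ratio scaling between libraries, where that median was -0.0037. Unnamed assembled rows numbered 51528 to 83180 in untreated and 17102 to 36546 in manipulated libraries. The labelled tissue was checked against 10 markers of cortical glutamatergic neurons, of which 9 had rows and were tested, with summed levels of 109 to 157 FPKM in untreated and 89.2 to 140 FPKM in manipulated libraries. Most of each sum was Slc17a7, at 71.5 to 110 FPKM in untreated and 50.8 to 74.4 FPKM in manipulated libraries. None of the 9 passed. The groups stood apart for 2 with lower and 2 with higher values in manipulated rats, and for 1 and 3 after scaling. Markers of thalamic and hypothalamic neurons summed to 164 to 238 FPKM in untreated and 23.1 to 87.3 FPKM in manipulated libraries. All 13 tested markers had a log2 fold change below 0, and 8 of them passed, or 7 after scaling. Among them Slc17a6, the glutamate transporter of these neurons, had 9.65 to 11.4 FPKM in untreated and 1.11 to 1.28 FPKM in manipulated libraries. Pmch had 20.1, 19.2 and 30.5 FPKM in untreated libraries, 0.125 and 0.0815 FPKM in manipulated replicates 4 and 5, and was listed at 0 in manipulated replicate 6. The sum of 87.3 FPKM was that of the same replicate, where other markers of the list were high. Oxt had 46.5 FPKM there, 3.70 and 3.97 FPKM in replicates 4 and 5, and 16.2 to 40.5 FPKM in untreated libraries. Avp had 23.4 FPKM there, 0.811 and 0.812 FPKM in replicates 4 and 5, and 25.8 to 31.6 FPKM in untreated libraries. Striatal neuron markers summed to 57.6 to 86.9 FPKM in untreated and 91.9 to 233 FPKM in manipulated libraries. As deposited 0 of 12 tested markers were past the adjusted p and 9, all higher, had an unadjusted p under 0.05. After scaling 1 of them, Scn4b, passed with higher values, at an adjusted p by limma of 0.0246. On that scale all 12 stood apart with higher values, against 10% of all tested genes. Rarb, of the same list but below the filter, was listed at 0 in every untreated library and had 2.20, 1.75 and 0.859 FPKM in manipulated libraries. Blood cell markers with a row of their own, mostly the globin Hbb, summed to 95.4 to 115 FPKM in untreated and 41.7 to 56.6 FPKM in manipulated libraries. Neither of the 2 tested passed. A globin at a higher level, Hba-a1, shares its row and is not in that sum. Its row had 275, 337 and 330 FPKM in untreated and 204, 278 and 198 FPKM in manipulated libraries, and the groups overlapped. The part of these region and blood markers in the results on immediate early genes was not tested.

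Of the 8 tested immediate early genes, 1 passed with lower values in manipulated rats and none passed with higher values. The gene that passed was Fosl1, at a background of 0.272% of all tested genes that passed with lower and 0.0845% with higher values. The other 7 did not pass, with adjusted p of 0.330 to 0.761, and only Fosl1 had an unadjusted p under 0.05, as did 15.1% of all tested genes. The groups did not overlap for 2 of the 8, Fos and Fosl1, both lower, where 23.7% of all tested genes stood apart with lower and 1.08% with higher values in manipulated rats. A log2 fold change below 0 was found for 7 of the 8 and for 87.0% of all tested genes. Their median was -0.29 against -0.36 for all genes, and 6 of the 8 lay above the median of all genes. After scaling the median was 0.06, and 3 of the 8 lay below 0, where 50.7% of all tested genes did. On that scale none of the 8 passed, against 0.291% of all genes, and 2, Fosl1 and Egr1, had an unadjusted p under 0.05, against 11.3% of all genes. The scaled groups did not overlap for Fosl1, with lower values, as in 9.85% of all genes, and for Egr1, with higher values.

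**Figure D1:**
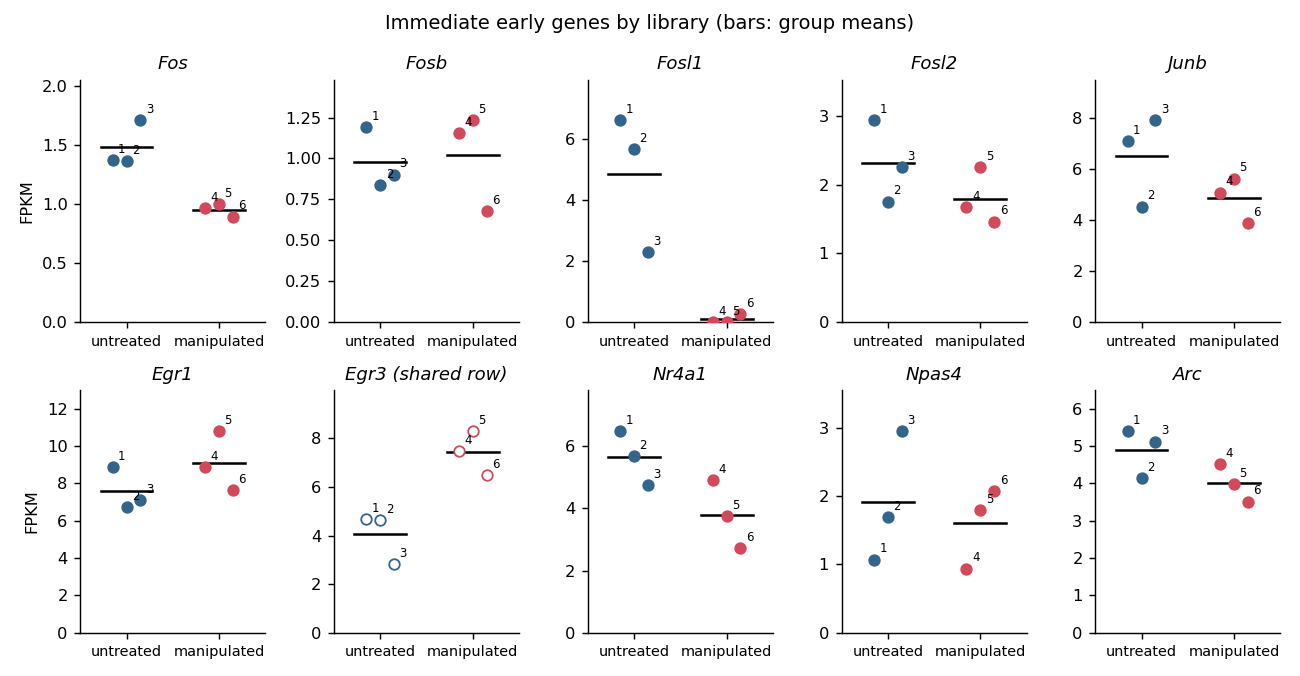
FPKM (vertical axes, each from 0) of the 10 immediate early genes in the 3 untreated (blue) and 3 manipulated (red) libraries, with replicate numbers beside the points and bars for group means. Fos and Fosl1 keep their groups apart with lower values in manipulated rats, and the open circles of the row that holds Egr3 lie higher there.

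In the untreated rats the levels ran from Egr1 at 7.57 ± 1.15 FPKM (SD, n = 3) and Junb at 6.52 ± 1.77 FPKM, through Nr4a1 at 5.63 ± 0.876, Arc at 4.89 ± 0.669 and Fosl1 at 4.85 ± 2.26, to Fosl2 at 2.32 ± 0.595, Npas4 at 1.91 ± 0.959, Fos at 1.48 ± 0.197 and Fosb at 0.978 ± 0.189 FPKM. Each of these neighbours overlapped over the untreated libraries except Fos and Fosb, and Fosl1 and Fosl2 met only through untreated replicate 3. In manipulated rats Egr1, at 9.11 ± 1.60 FPKM, lay above every value of Junb, at 4.86 ± 0.897 FPKM, and below them came Arc at 4.00 ± 0.505, Nr4a1 at 3.79 ± 1.09, Fosl2 at 1.80 ± 0.410, Npas4 at 1.60 ± 0.592, Fosb at 1.02 ± 0.302 and Fos at 0.952 ± 0.0557 FPKM. Each of the neighbours from Junb to Arc and Nr4a1, and from Fosl2 to Fos, overlapped, while Nr4a1 and Fosl2 did not. Fos ranked low among tested genes, between the 6.56 and 12.9 percentile of its library, while Arc lay between the 49.2 and 59.2 percentile.

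Promoters of 7 of the 10 genes were found in the RefSeq table of GRCr8, those of Fosb, Fosl1, Fosl2, Junb, Egr1, Npas4 and Nr4a1. The 250 bases before each start were searched on both strands for the cyclic AMP response element TGACGTCA, its half-site CGTCA, the CArG box bound by SRF, the AP-1 site TGANTCA and the EGR site GCGNGGGCG. A half-site lies within every full element, and those are counted in both. The half-site was present in 4 of the 7 promoters and in 18.2% of all 33469 promoters of the table. Nr4a1 held 4 of them, where 0.173% of all promoters held 4 or more. Fosl1 and Egr1 held 2 each, where 3.98% of all promoters held 2 or more, and Junb held 1. The CArG box was present in Egr1 alone of the 7, at 2 places, and in 1.50% of all promoters, with 2 or more in 0.0209%. The EGR site was present in Fosl2 and Nr4a1 and in 4.29% of all promoters, and the full element and the AP-1 site in none of the 7 and in 1.59% and 6.34% of all. Shown here are 3 promoters that hold half-sites: that of Nr4a1, with the most, that of Fosl1, the gene that passed, and that of Junb, with 1. Capitals mark CGTCA or, for a half-site on the other strand, TGACG, and each is written 5′ to 3′ along the gene. They are chr7:134259888-134260137 (plus strand), chr1:212183635-212183884 (plus strand) and chr19:40080876-40081125 (plus strand) on GRCr8, in that order.
Nr4a1: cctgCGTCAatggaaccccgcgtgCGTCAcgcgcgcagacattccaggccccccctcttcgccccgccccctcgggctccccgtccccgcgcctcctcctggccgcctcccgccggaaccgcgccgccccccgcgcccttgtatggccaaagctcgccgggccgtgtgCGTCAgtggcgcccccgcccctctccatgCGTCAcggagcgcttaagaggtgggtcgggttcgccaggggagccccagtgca
Fosl1: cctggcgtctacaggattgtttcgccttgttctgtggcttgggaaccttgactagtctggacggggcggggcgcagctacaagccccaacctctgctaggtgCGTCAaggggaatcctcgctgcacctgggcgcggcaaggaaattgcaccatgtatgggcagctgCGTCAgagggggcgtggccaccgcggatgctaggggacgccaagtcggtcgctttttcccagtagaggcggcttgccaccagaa
Junb: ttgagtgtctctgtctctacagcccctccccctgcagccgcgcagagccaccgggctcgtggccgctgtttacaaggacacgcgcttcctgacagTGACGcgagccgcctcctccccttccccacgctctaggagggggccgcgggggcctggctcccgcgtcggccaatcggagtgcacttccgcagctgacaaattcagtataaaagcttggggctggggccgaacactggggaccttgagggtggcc
A match is a string of letters in a window, and the tables hold no measure of binding.

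The FOS proteins pair with JUN proteins to form AP-1, a dimer that binds DNA. Fos, the founding member and the fastest to appear after stimulation, lies on chromosome 6, 109300433 to 109303811 (Rnor_6.0, widest row over the libraries). It had 1.37, 1.36 and 1.71 FPKM in untreated replicates 1, 2 and 3 and 0.965, 1.00 and 0.891 FPKM in manipulated replicates 4, 5 and 6. Every manipulated value was below every untreated one. Its log2 fold change was -0.34 (SE 0.24), close to the median of all genes, and limma gave an adjusted p of 0.387. After scaling the values were 1.04, 1.43 and 1.37 against 1.02, 1.01 and 1.38 scaled FPKM, the groups overlapped, and the log2 fold change was -0.09. The deposited intervals of single libraries met between the groups, from 1.09 FPKM in untreated up to 1.23 FPKM in manipulated rats.

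Fosl1 encodes Fra-1, a FOS protein without the strong activation region of Fos. It lies on chromosome 1 from 220826560, and it had 6.60, 5.65 and 2.30 FPKM in untreated replicates 1, 2 and 3, was listed at 0 in manipulated replicates 4 and 5, and had 0.272 FPKM in replicate 6. The groups stood apart, as did the deposited intervals, at 2.01 FPKM or more in untreated and 0.403 FPKM or less in manipulated rats. The log2 fold change was -2.34 (SE 0.34) and limma gave an adjusted p of 0.0249. The call ended after median-ratio scaling, at a log2 fold change of -2.12 and an adjusted p of 0.141, without untreated replicate 2, at 0.0667, and without manipulated replicate 6, at 0.104.

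The assembled row of Fosl1 did not cover the same stretch in the 2 groups. In the manipulated libraries it ended at 220835066, and in untreated replicates 1, 2 and 3 it ran 1537, 1527 and 1589 bases further. That extra stretch reaches over AC109096.1 (chromosome 1, 220836092 to 220836504 in its shortest rows), a clone-named gene at 62.4, 53.6 and 70.5 FPKM in untreated and 56.4, 74.8 and 26.5 FPKM in manipulated libraries. In the RefSeq table of the assembly GRCr8 the gene that follows Fosl1 is Ccdc85b, with Fibp after it, and in these tables AC109096.1 stands between Fosl1 and Fibp. In manipulated replicate 6 an unnamed row at 9.09 FPKM lay in the same stretch. When all rows within the widest span were added together, the place had 69.0, 81.8 and 75.8 FPKM in untreated and 56.4, 74.8 and 37.2 FPKM in manipulated libraries, the groups overlapped, and the log2 fold change was -0.47, for which limma gave an adjusted p of 0.387. AC109096.1 makes up most of that sum, and its own row began within 10 bases after the end of the short Fosl1 row in untreated replicate 3 and manipulated replicate 4, and inside it in manipulated replicate 5. So the Fosl1 value moved with where its row ended, and the part of that in the result was not tested.

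**Figure D2:**
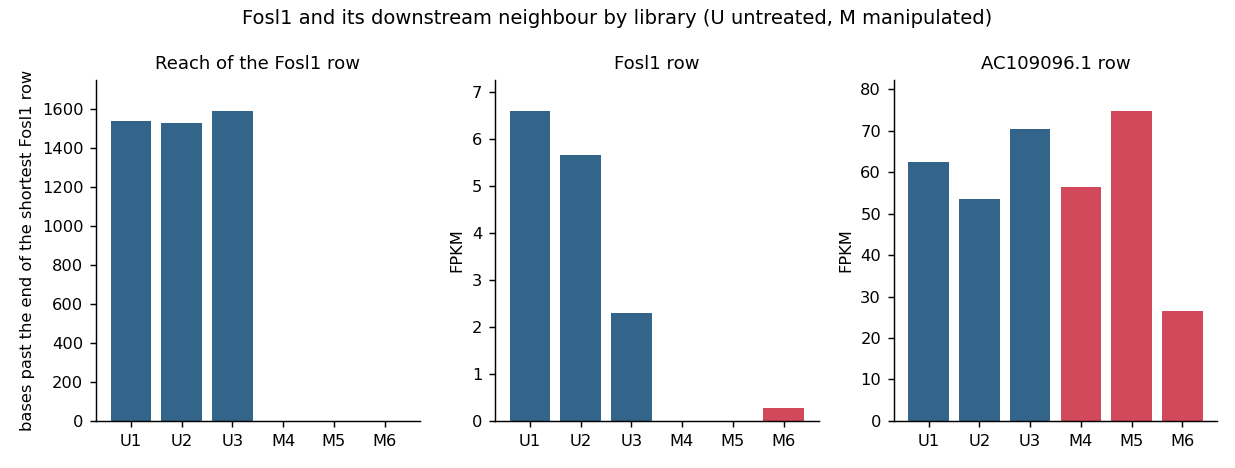
Left, bases by which the Fosl1 row runs past the end of its shortest row; middle and right, FPKM of the Fosl1 row and of the AC109096.1 row, for each library (U1 to U3 untreated, M4 to M6 manipulated). The 3 libraries with a long Fosl1 row, by 1527 to 1589 bases, are the 3 with Fosl1 at 2.30 FPKM or more.

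Fosl2, which encodes Fra-2, and Fosb, whose shortened product builds up with repeated stimulation, did not pass. Fosl2 (chromosome 6, 25598936 to 25617922) had 2.94, 1.75 and 2.26 FPKM in untreated and 1.67, 2.25 and 1.46 FPKM in manipulated libraries, at a log2 fold change of -0.24 (SE 0.24), or 0.07 after scaling. Fosb (chromosome 1, 80214485 to 80221710) had 1.19, 0.838 and 0.902 FPKM in untreated and 1.16, 1.23 and 0.676 FPKM in manipulated libraries. As deposited the groups overlapped in both genes. In a limma fit over all 22729 symbols with a value above 0, which also kept rows naming several genes and where 0.123% of symbols passed, Fosb had a log2 fold change of 0.02 and an adjusted p of 0.944. After scaling it was 0.25 with an adjusted p of 0.522, and every manipulated value was higher, as in 8.37% of these symbols.

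Junb encodes a JUN protein that pairs with FOS proteins in AP-1. It (chromosome 19, 26092974 to 26094756) had 7.11, 4.53 and 7.93 FPKM in untreated and 5.08, 5.63 and 3.88 FPKM in manipulated libraries. Untreated replicate 2 lay within the manipulated range. Its log2 fold change was -0.34 (SE 0.26) and limma gave an adjusted p of 0.408, and it was 0.05 after scaling.

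The EGR proteins are zinc finger factors that bind GC-rich sites, and Egr1 is induced in cortex by learning and by sensory input. Egr1 (chromosome 18, 27657628 to 27661592) was the only tested gene of the set with a higher mean in manipulated rats. It had 8.88, 6.73 and 7.10 FPKM in untreated and 8.87, 10.8 and 7.64 FPKM in manipulated libraries, and the groups overlapped. The log2 fold change was 0.23 (SE 0.24), and limma gave an adjusted p of 0.518. After scaling the values were 6.71, 7.05 and 5.68 against 9.37, 10.9 and 11.8 scaled FPKM, and every manipulated value was above every untreated one, as in 10% of all tested genes. The scaled log2 fold change was 0.64 (SE 0.13), with an unadjusted p of 0.00221 and an adjusted p by limma of 0.163. Its rank among the tested genes of a library, which no scaling of the library can move, was between the 61.7 and 68.5 percentile in untreated and between the 76.4 and 81.8 percentile in manipulated rats. The share of all tested genes whose ranks stood apart in this way is not given here. These ranks are therefore not a result about Egr1 in particular.

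Egr3, a further EGR factor induced by activity, could not be separated from its neighbours. Its row on chromosome 15 (from 51756322) also named AC111804.2 in all 6 libraries, and Bin3 in manipulated replicate 6. That row had 4.69, 4.65 and 2.81 FPKM in untreated and 7.47, 8.30 and 6.48 FPKM in manipulated libraries. All manipulated values were higher, as in 1.33% of the 22729 symbols of that fit, and the deposited intervals stood apart, at 5.13 FPKM or less against 5.80 FPKM or more. Its log2 fold change was 0.76 (SE 0.22), with an unadjusted p of 0.0156 and an adjusted p by limma of 0.385, and it was 0.84 without manipulated replicate 6, whose row also held Bin3. After scaling it was 1.15 (SE 0.23), and limma gave an adjusted p of 0.255. So the row did not pass, and Egr3 and its neighbours cannot be told apart in it.

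Nr4a1 encodes Nur77, an orphan nuclear receptor induced by calcium and cyclic AMP. It (chromosome 7, 142899101 to 142920279) had 6.49, 5.67 and 4.74 FPKM in untreated and 4.90, 3.74 and 2.72 FPKM in manipulated libraries. Untreated replicate 3 lay below manipulated replicate 4, so that the groups overlapped. The log2 fold change was -0.49 (SE 0.24), with an unadjusted p of 0.0739 and an adjusted p by limma of 0.330, and it was -0.12 after scaling. Unnamed rows lay inside the Nr4a1 span 9 times in the untreated libraries and 1 time in the manipulated ones. With these rows added the FPKM summed to 18.1, 6.15 and 26.1 against 4.90, 3.74 and 3.48. The log2 fold change of the sums was -1.63, with an adjusted p by limma of 0.270. Such a sum joins rows of different length and is not a level of Nr4a1. In untreated replicate 3 a single short row (142913175 to 142913320) gave 19.4 FPKM of it, with a deposited interval of 7.69 to 31.1 FPKM. Over the 10 genes, unnamed rows that overlapped the row of the gene, inside it or reaching past it, numbered 22 in untreated and 7 in manipulated libraries. Unnamed rows were more numerous in untreated libraries as a whole, at 51528 to 83180 a library against 17102 to 36546.

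Npas4 encodes a factor that in neurons answers calcium entry and little else, and that shapes inhibitory synapses. It (chromosome 1, 220260902 to 220265882) had 1.07, 1.70 and 2.96 FPKM in untreated and 0.940, 1.79 and 2.08 FPKM in manipulated libraries. It varied as much within a group as between groups, at a log2 fold change of -0.14 (SE 0.31), for which limma gave an adjusted p of 0.761. Its rank ran from the 4.58 to the 29.9 percentile in untreated and from the 6.29 to the 38.7 percentile in manipulated libraries.

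Arc encodes a protein of dendrites that speeds the removal of AMPA receptors from synapses. It (chromosome 7, 115907097 to 115910554) had 5.41, 4.13 and 5.12 FPKM in untreated and 4.52, 3.98 and 3.51 FPKM in manipulated libraries. Untreated replicate 2 lay below manipulated replicate 4. Its log2 fold change was -0.23 (SE 0.21), for which limma gave an adjusted p of 0.466, and it was 0.14 after scaling.

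**Figure D3:**
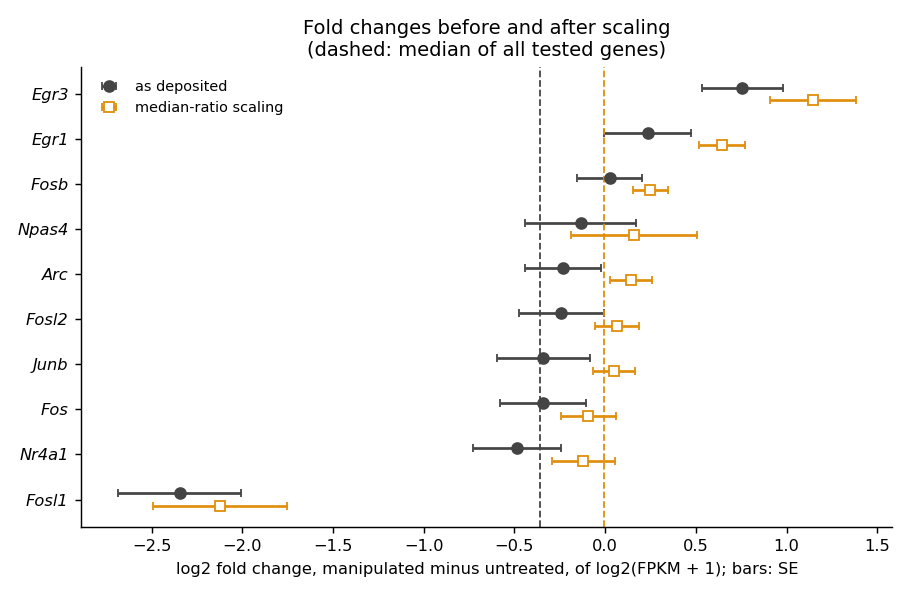
Log2 fold change, manipulated minus untreated, of log2(FPKM + 1) for the 10 genes, as deposited (filled) and after median-ratio scaling (open), with SE bars; dashed lines are the medians of all tested genes, -0.36 and -0.0037. Egr3 (its shared row) and Fosb come from the fit over 22729 symbols. Most genes lie near the dashed line of their scale, while Fosl1 lies far to the left and Egr1 and the row with Egr3 lie to the right.

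Ratios within a library carry no scaling. The ratio of Fos to Egr1 was 0.154, 0.203 and 0.241 in untreated and 0.109, 0.0926 and 0.117 in manipulated libraries. The ratio of Nr4a1 to Egr1 was 0.731, 0.843 and 0.667 against 0.552, 0.346 and 0.355. The ratio to Egr1 was lower in every manipulated library for 6 of the 7 other tested immediate early genes, Npas4 being the exception, and for 65.7% of all tested genes. These ratios were chosen after the values were seen, and the share over all genes shows that a lower ratio to Egr1 was common in the tables.

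The rest of the pathway was read from 5 lists of 88 related genes, of which 64 were tested. A single gene, Rasd1, passed by limma with lower values and 0 passed with higher values. An unadjusted p under 0.05 was found for 8 lower and 1 higher, where 15.1% of all tested genes had one. The groups stood apart for 13 lower and 1 higher of the 64, where 23.7% and 1.08% of all tested genes did. After scaling they stood apart for 9 lower and 12 higher, where 9.85% and 10% of all genes did, and 0 genes passed in either direction.

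The other AP-1 genes had a median log2 fold change of -0.31 over 4 tested of 8, and none passed. Jun, the main partner of Fos, had 12.5, 7.63 and 8.92 FPKM in untreated and 1.32, 5.96 and 4.09 FPKM in manipulated libraries. The groups stood apart, also after scaling. The fold change on the log2 scale was -1.27 (SE 0.39), for which limma gave an adjusted p of 0.309, and -0.88 after scaling. Mafk, a small MAF protein, had 1.89 ± 0.255 and 1.33 ± 0.467 FPKM (SD, n = 3). Atf3, Maff, Batf and Batf3 lay below the filter.

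Of the other EGR and NR4A genes and the EGR corepressors NAB, 5 of 6 were tested, none passed, and the median was -0.25. Egr4 had 1.91, 1.66 and 1.67 FPKM in untreated and 4.85, 2.92 and 2.38 FPKM in manipulated libraries. It was the only gene of the 5 lists that stood apart with higher values as deposited. The log2 fold change was 0.64 (SE 0.25), for which limma gave an adjusted p of 0.326, and after scaling it was 0.95 with an adjusted p of 0.156. Nab1 had 3.49 ± 1.52 in untreated and 2.03 ± 0.575 FPKM in manipulated libraries (SD, n = 3). Nab2 went the other way in its means, with a log2 fold change of 0.46 and an adjusted p by limma of 0.358. In both genes the groups overlapped. Nr4a2 and Nr4a3 overlapped between groups, and Egr2, below the filter, had 0.211 ± 0.0991 and 0.142 ± 0.0224 FPKM with overlapping groups. So Egr1, the row with Egr3, and Egr4 had higher means in manipulated rats and Egr2 a lower one, and none of them passed. In the same libraries the summed striatal markers were higher, as given above, and their part was not tested.

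Among 28 rapid response and feedback genes, 22 were tested with a median of -0.36, the value of all genes. Rasd1, a small G protein induced by glucocorticoids, had 9.28, 4.63 and 8.16 FPKM in untreated libraries, was listed at 0 in manipulated replicates 4 and 5, and had 1.75 FPKM in replicate 6. Its log2 fold change was -2.53 (SE 0.41), and limma gave an adjusted p of 0.0462. The call held in 5 of 17 other settings. Among these 5 is the setting with rows within the widest span added, which changed the immediate early genes only. It left the values of Rasd1 as they were and could not test its call. The call ended after scaling, at 0.236, and without untreated replicate 1 (0.0601), untreated replicate 3 (0.0623) or manipulated replicate 5 (0.0771). Dusp1, a phosphatase that switches off MAP kinases, named after its values were seen, had 5.93, 7.26 and 8.58 FPKM against 3.26, 4.47 and 3.06 FPKM, with an adjusted p of 0.270, and the groups overlapped after scaling.

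Of 19 effector genes that follow activity, 12 were tested, none passed, and the median was -0.39. Nrn1, a membrane-bound neuritin, had 36.6, 24.9 and 39.3 FPKM in untreated and 14.4, 19.1 and 10.8 FPKM in manipulated libraries, a log2 fold change of -1.15 (SE 0.31), for which limma gave an adjusted p of 0.270. Nptx2, a pentraxin that gathers AMPA receptors, had 8.46, 5.12 and 6.85 FPKM against 4.40, 4.69 and 3.13 FPKM, with an adjusted p of 0.326. Bdnf, brain-derived neurotrophic factor, named after its values were seen, had 2.00, 1.11 and 1.18 FPKM against 0.498, 0.780 and 0.484 FPKM. In each of these 3 genes the groups stood apart, also after scaling, at log2 fold changes of -0.71, -0.23 and -0.38. Homer1 and Plk2, 2 further activity genes of the synapse, overlapped as deposited. After scaling Plk2 stood apart with higher values in manipulated rats, at a log2 fold change of 0.48 and an adjusted p by limma of 0.182.

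Of 27 upstream regulators 21 were tested, none passed, and the median was -0.18, or 0.21 after scaling. Crtc2, a coactivator of CREB, had a log2 fold change of -0.47 and an adjusted p by limma of 0.326. For Mapk3, the kinase ERK1, these were -0.56 and 0.333. Both stood apart as deposited and overlapped after scaling. Creb1 lay in rows that also name another gene and was not tested.

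**Figure D4:**
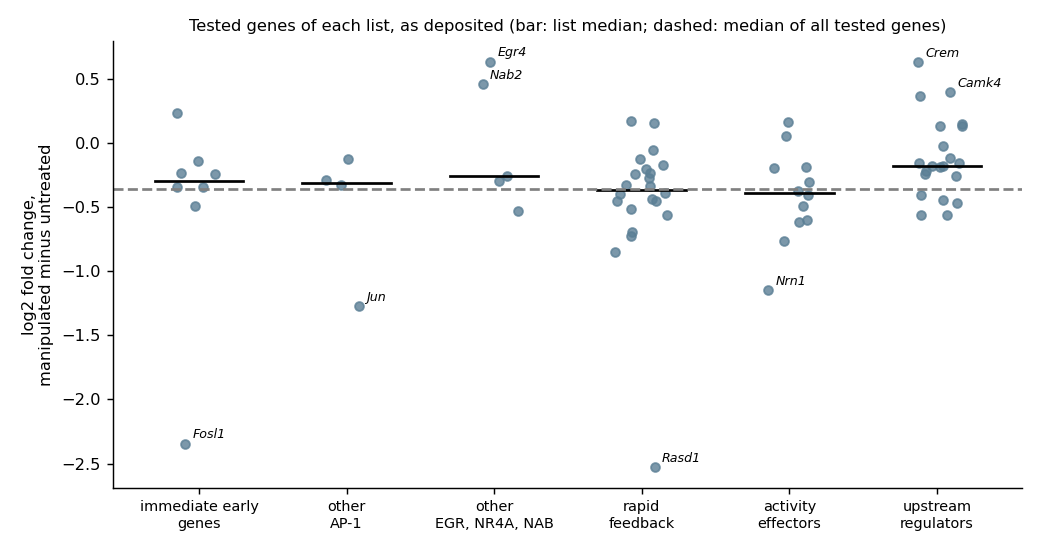
Log2 fold changes, manipulated minus untreated and as deposited, of the tested immediate early genes and of the 5 lists of related genes; each point is a gene, bars are list medians, and the dashed line is the median of all tested genes, -0.36. List medians run from -0.39 to -0.18, and Fosl1 and Rasd1 lie lowest.

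Likeness was measured against the mean over the 8 tested genes of their values, centred and scaled over the libraries. That mean was 0.768, -0.0596 and 0.665 in untreated and -0.400, -0.0829 and -0.890 in manipulated libraries. Untreated replicate 2 and manipulated replicate 5 were thus close. The 5 genes with the highest Pearson r to it across the 6 libraries were Mcph1 (0.999), Zfp709 (0.999), Srgn (0.998), Gpalpp1 (0.998) and Rap1b (0.998), as a description without a test. Of 9071 candidate genes 2903 had an r above 0.9. The scaling factors of the libraries, 1.32, 0.954 and 1.25 in untreated and 0.947, 0.995 and 0.647 in manipulated rats, ran in the same order as the mean but for untreated replicate 2 and manipulated replicate 5, whose places were exchanged.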

How the data were processed

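Each library has a table of FPKM values that the authors made on the build Rnor_6.0. The submitters' processing notes name Cufflinks, without a version, and STAR 2.7.3a. Each row holds an FPKM, its interval and a status per the file headers, and row spans differ between libraries. Strandedness, annotation release and read totals, and so the depth, were not given in the sources used here.

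Rows were summed by symbol. Of 30076 symbols, those sharing a row with another gene (3254), at several places (144), missing from a library (32) or with a failed estimate (5) were left out, and 10657 of the 26641 kept had a mean of at least 1 FPKM. Starts count from 0 in the files and from 1 here. The test was that of limma 3.58.1 (R 4.3.3) on log2(FPKM + 1), two-sided, with a mean-variance trend, no covariate and Benjamini-Hochberg adjustment over all tested genes. It was also run on simulated data. These had no shift in level between whole libraries, so that run does not bear on calls that end after scaling. Rats were the replicates. Figures used Python 3.11.15 and matplotlib 3.10.9.

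The genes and lists were chosen with earlier results of these data known. Named genes are the 10 immediate early genes, and from each list of related genes those past the adjusted p or else the 2 with the smallest p, plus the 5 genes, clone and locus names left out, with the highest r to the mean of the tested 8. Other genes named, such as Dusp1, Bdnf, Homer1, Plk2, Nab2, Nr4a2, Nr4a3, Creb1, Rarb and the AP-1 and EGR genes below the filter, were chosen after their values were seen. Marker lists of other cell types were read as summed levels of the genes with a row of their own. Creb1 and other genes in shared rows were not tested. Alternatives changed the pseudocount, filter, scaling, variance model, weights, rows used and libraries. Where rows were added, FPKM of rows of different length were summed, which is not the level of any single transcript.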

Additional observations from a re-analysis of the deposited data

How the results depend on the processing

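The call of Fosl1 was the only one among the immediate early genes, so that their count of calls went from 1 to 0 with no filter on low values, a mean of at least 5 FPKM (where Fosl1 is not tested), median-ratio or upper-quartile scaling, rows naming several genes kept, overlapping unnamed rows added or, an alternative chosen after seeing the data, rows within the widest span added, and ranged from 0 to 1 when a library was left out. Fosl1 kept its call in 9 of 17 other settings. The median log2 fold change of the tested genes was 0.0570 with median-ratio and 0.0418 with upper-quartile scaling, -0.0533 with a mean of at least 5 FPKM (2 genes) and -0.54 with overlapping unnamed rows added. Immediate early genes whose groups stood apart went from 2 to 0 with a mean of at least 5 FPKM. They numbered 4 with overlapping unnamed rows added. Their count ranged from 2 to 5 when a library was left out (5 without untreated replicate 2, 4 without manipulated replicate 4). With a library left out, groups stand apart more easily in any gene. The share of all genes in these settings is not given here. These counts are therefore not a result about the immediate early genes in particular. Calls among the related genes went from 1 to 0 with pseudocounts of 0.1 and 0.5, no filter, a mean of at least 5 FPKM, both scalings, no mean-variance trend, a robust prior, rows naming several genes kept and overlapping unnamed rows added, were 7 with library weights (where 940 of all genes passed), and ranged from 0 to 1 when a library was left out. The cause of these changes was not tested, apart from the genes that a filter removes.

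Directions turned with median-ratio and upper-quartile scaling for Fosl2 (0.0663 and 0.0528), Junb (0.0476 and 0.0308), Npas4 (0.16 and 0.15) and Arc (0.14 and 0.13). Npas4 also turned to 0.00989 with overlapping unnamed rows or rows within the widest span added, and ranged from -0.35 to 0.11 when a library was left out (0.11 without untreated replicate 3, 0.0632 without manipulated replicate 4). Fosb ranged from -0.0527 to 0.15 when a library was left out, with -0.0256, -0.00118, -0.0271 and -0.0527 without untreated replicates 2 and 3 and manipulated replicates 4 and 5. Fos, Nr4a1, Egr1 and the row with Egr3 kept their direction in the settings run, but the size often rested on single libraries. Settings that change only the filter or the variance model cannot move a fold change. With a library left out Egr1 ranged from 0.12 (without manipulated replicate 5) to 0.34 (without manipulated replicate 6), and Nr4a1 from -0.65 (without manipulated replicate 4) to -0.32 (without manipulated replicate 6). Junb ranged from -0.55 (without untreated replicate 2) to -0.20 (without untreated replicate 3), Fosl2 from -0.37 (without untreated replicate 2) to -0.11 (without untreated replicate 1), and Arc from -0.33 (without untreated replicate 2) to -0.16 (without manipulated replicate 6). No paired analysis was possible because the groups share no replicate numbers. No depth is given, so precision rests on 3 libraries a group and on the deposited intervals.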
